A study of Mus musculus with 4 samples.

Results

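The endothelin signal of the first pharyngeal arch and its Hand targets were described through 9 genes, taken by their symbols: Edn1, Ece1, Ednra, Ednrb, Plcb3, Mef2c, Gsc, Hand2 and Hand1. All 9 were found among the 52459 genes listed, and 8 of them, without Hand1, had a mean of at least 10 normalized reads and were tested. RNA came from first arches of mouse embryos that had 25 to 27 somites (E9.5-E9.75). There were 2 libraries of Wnt1-Cre;pMes-Bmp4 embryos, called transgenic here, and 2 of wild-type embryos. In the transgenic embryos Cre under the Wnt1 promoter, active in dorsal neural tube and neural crest, turns on a Bmp4 transgene. No group carried Wnt1-Cre or pMes-Bmp4 alone, so effects of raised Bmp4 and of the other transgene or background cannot be told apart. Whether the numbered libraries of a group stem from separate embryos is not stated, so p-values measure only the spread between these libraries, which may be technical.

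Endothelin-1 is a secreted peptide made by the epithelium and the mesodermal core of the arch. It binds the endothelin A receptor on neural crest cells, which acts through Gq-class G proteins and phospholipase C, and it gives crest of the lower jaw its identity. Downstream, Mef2c and the Dlx5 and Dlx6 homeobox factors switch on Hand2, which patterns the distal part of the arch, while Gsc marks arch mesenchyme that forms parts of the jaw and ear skeleton. The comparison asks whether any step of this path differed between arches with crest-driven Bmp4 and wild-type arches.

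Library totals ran between 29607541 and 47849092 reads assigned to genes. Bmp4 itself was at 2656 and 1745 normalized reads in transgenic arches, against 681.7 and 437.1 in wild-type arches, 3.93-fold higher by the means (limma adjusted p 0.0211). The crest mesenchyme gene Prrx1 was at 4455 and 3863 in transgenic and 4266 and 5936 in wild-type arches. Hox genes, which mark the arches behind the first, were under the minimum level (0 of 6 tested). Wild-type library 1 stood apart in the pigment cell genes Dct and Pmel. Dct was at 19.2 and 26.67 in transgenic arches, against 353.8 and 14.4 in wild-type libraries 1 and 2. Pmel was at 16 and 20.61 in transgenic arches, against 201.8 and 17.48 in wild-type libraries 1 and 2. In these RNA samples of whole arches, fewer cells of a type and less RNA per cell cannot be told apart.

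The path was transcribed from ligand to target in both groups, with the lowest levels for Gsc, Ednrb and the Hand genes. Levels between genes were compared as normalized reads per kilobase of the longest transcript. Mef2c had the highest mean level, 204 ± 39.1 per kilobase in transgenic and 266 ± 14 in wild-type arches (SD, n = 2 each). Ece1 followed with 167 ± 44.9 in transgenic and 211 ± 3.77 in wild-type arches, and Ednra with 152 ± 7.56 in transgenic and 145 ± 1.53 in wild-type arches. Edn1 had 97.1 ± 42.2 per kilobase in transgenic and 95 ± 25.5 in wild-type arches, next to Plcb3 with 89.5 ± 19.4 in transgenic and 101 ± 7.58 in wild-type arches. Gsc, Ednrb and Hand2 were lower, and their means lay between 20.1 and 44.9 per kilobase in either group. Hand1 was lowest, with 4.66 ± 4.22 per kilobase in transgenic and 4.24 ± 4.47 in wild-type arches. Between neighbours in this order the ranges over the 4 libraries were apart at 3 steps, from Ednra to Edn1, from Plcb3 to Gsc and from Hand2 to Hand1, and overlapped at the others. Among all tested genes with a known length, the mean level of Mef2c lay at percentile 65, that of Hand2 at 24.1 and that of Hand1 at 4.73.

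**Figure D1:**
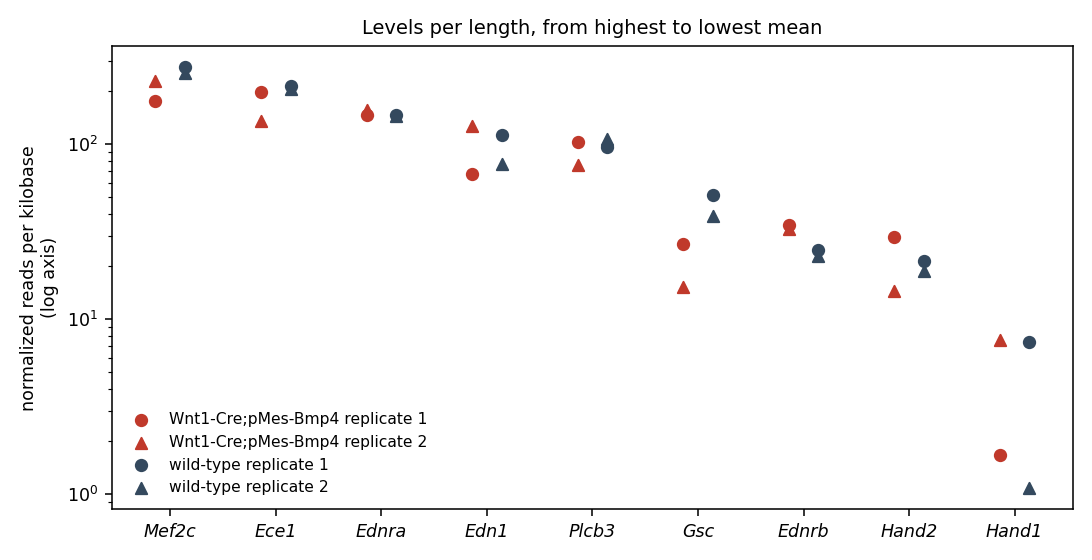
Normalized reads per kilobase of the longest transcript (log axis) for the 9 genes in each of the 4 libraries, ordered by mean; red is transgenic, dark blue wild-type, circles replicate 1 and triangles replicate 2. Mef2c, Ece1 and Ednra lie highest and Hand1 lowest, and the 2 Hand1 libraries of each group lie far apart.

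None of the 8 genes tested passed the threshold of 0.05 for the limma adjusted p (0 higher, 0 lower), where 8.25% of all 16746 genes tested passed. At an unadjusted p under 0.05, limma gave 2 of the 8 lower, Gsc and Mef2c, and 0 higher. Of all 16746 genes tested, limma gave 2570 lower and 2246 higher at that level. On the recovered reads, edgeR and DESeq2 also called 0 of the 8, with 2 and 1 lower at an unadjusted p under 0.05. Over all genes tested, 2679 and 2419 were lower at that level in edgeR and DESeq2. In 5 of the 8 the transgenic libraries did not overlap the wild-type libraries, a pattern shown by 59.7% of all genes tested. Both transgenic libraries were above both wild-type libraries in 2 of the 8 (30.0% of all genes tested) and below them in 3 (29.7%). The median log2 fold change of the 8 was -0.10, beside 0.02 over all genes tested. These counts do not show that the genes were equal between the groups, and the intervals below give the differences that the 4 libraries leave possible. Each interval is limma's 95% confidence interval turned into a fold, with transgenic over wild-type.

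The ligand Edn1, on chromosome 13 at 42301476 to 42307990 of GRCm38, varied between libraries of both groups and had almost the same mean in each. Edn1 was at 144 and 271.6 normalized reads in transgenic libraries 1 and 2, against 241.8 and 164.6 in wild-type libraries 1 and 2. The transgenic values enclosed both wild-type values. Means were 207.8 ± 90.2 in transgenic and 203.2 ± 54.6 in wild-type arches (SD, n = 2 each). Limma gave -0.01 ± 0.35 (SE) for the log2 fold change and 0.984 for the adjusted p. The interval ran from 0.56-fold to 1.76-fold. Within each group the spread went beyond counting error. The exact 95% Poisson intervals of transgenic libraries 1 and 2 were 121 to 170 and 237 to 310 normalized reads, and those of wild-type libraries 1 and 2 were 216 to 270 and 140 to 192. These intervals cover counting error only. Without transgenic replicate 1 the log2 fold change was 0.44, and without transgenic replicate 2 it was -0.47, so that its sign followed the library left out.

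Epithelium is a source of Edn1. The summed level of its markers was 34080 and 31960 in transgenic arches, against 25250 and 19080 in wild-type arches. Of 9 epithelial markers tested, 2 were higher, the keratins Krt18 and Krt14, where 2.97% of all genes tested were higher, and 7 did not pass. After a correction for transcript length 0 of the 9 passed in limma, where 1.54% of all genes did so. Krt18 had log2 fold changes of 0.87 before and 0.66 after the correction, and Krt14 of 0.98 and 0.76. Markers of the mesodermal core, another source, summed to 3805 and 3709 in transgenic arches, against 2773 and 2705 in wild-type arches, with 0 of 6 tested called in limma. The part of either tissue in the Edn1 values was not tested.

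Ece1, on chromosome 4 at 137862237 to 137965229, encodes the protease that cuts the inactive endothelin precursor to the active peptide. Ece1 was at 956.7 and 651.1 normalized reads in transgenic arches, against 1030 and 1004 in wild-type arches. Both transgenic libraries lay below both wild-type libraries, but they differed from each other by 1.47-fold, and the wild-type libraries by 1.03-fold. Ece1 had a log2 fold change of -0.36 ± 0.20 (SE, limma adjusted p 0.285), with an interval of 0.557-fold to 1.08-fold. Without transgenic replicate 1 the log2 fold change was -0.64, and without transgenic replicate 2 it was -0.09.

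Ednra, the receptor on crest cells, lies on chromosome 8 at 77663031 to 77724464 and differed little between groups and between libraries. Ednra was at 531.1 and 569.9 normalized reads in transgenic arches, against 530.4 and 522.5 in wild-type arches. The groups were apart by under 1 normalized read at their nearest values. Its log2 fold change was 0.06 ± 0.16 (SE, limma adjusted p 0.826), and the interval ran from 0.802-fold to 1.36-fold, the narrowest of the 8 on the log2 scale. With each library left out in turn the log2 fold change stayed between 0.01 and 0.11.

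The second receptor, Ednrb, serves pigment and enteric crest and binds endothelin-3 as well as endothelin-1. It lies on chromosome 14 at 103814625 to 103844402. Ednrb was at 141.8 and 134.6 normalized reads in transgenic arches, against 101.6 and 94.62 in wild-type arches. Libraries of each group lay close together and the groups did not overlap. The means were 1.41-fold apart, or 0.49 ± 0.26 (SE) as a log2 fold change, and Ednrb did not pass (limma adjusted p 0.254). The interval ran from 0.926-fold to 2.13-fold, and the log2 fold change was between 0.44 and 0.54 with each library left out.

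Per length, Ednra exceeded Ednrb 4.24-fold and 4.8-fold in the transgenic libraries, against 5.91-fold and 6.26-fold in the wild-type libraries. Ednra was thus the more abundant receptor in all 4 libraries. The summed level of 8 markers of glial and pigment crest was 1399 and 1442 in transgenic arches, against 1607 and 1075 in wild-type arches, where Dct and Pmel gave wild-type library 1 part of its sum. Their part in the Ednrb values was not tested.

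Plcb3, a phospholipase C that Gq-class proteins activate, lies on chromosome 19 at 6952325 to 6976470. Plcb3 was at 470.3 and 345.5 normalized reads in transgenic arches, against 437.6 and 486.5 in wild-type arches. The groups overlapped, with transgenic library 2 lowest. The log2 fold change was -0.19 ± 0.21 (SE, limma adjusted p 0.574), with an interval of 0.621-fold to 1.23-fold.

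**Figure D2:**
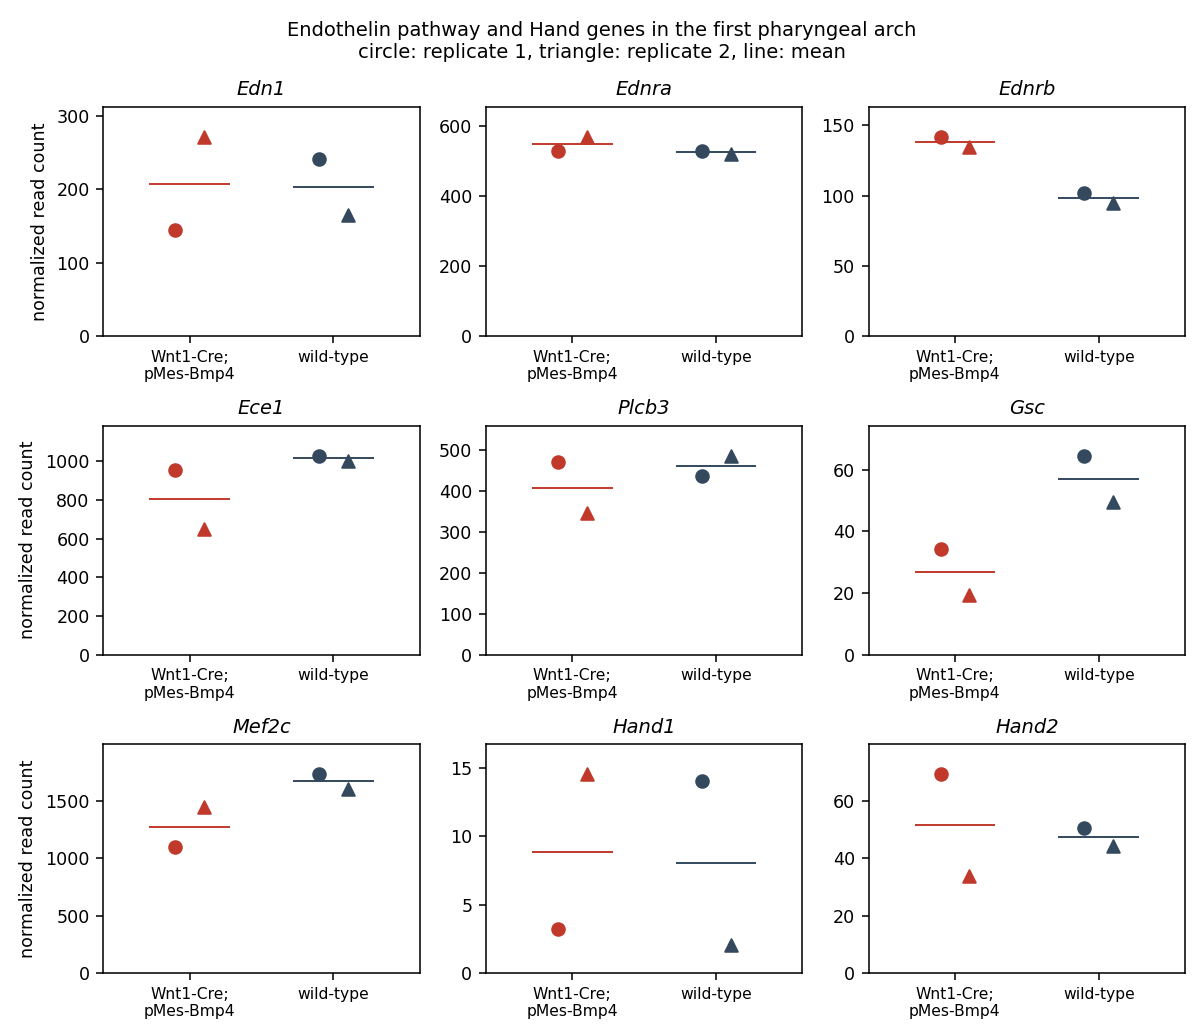
Normalized read counts of the 9 genes in each library, transgenic left and wild-type right, with a line at the mean of each group; each vertical axis starts at 0. Ednrb is higher in both transgenic libraries, Gsc, Mef2c and Ece1 are lower in both, and the Edn1, Plcb3, Hand1 and Hand2 values of the groups overlap.

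Among the nuclear factors Mef2c and Gsc had the smallest unadjusted p values, and both were lower in the transgenic libraries. Mef2c, a MADS-box factor that acts on enhancers of the Dlx5/6 and Hand2 loci, lies on chromosome 13 at 83504034 to 83667080. Mef2c was at 1104 and 1451 normalized reads in transgenic arches, against 1734 and 1610 in wild-type arches. Both transgenic libraries lay below both wild-type libraries. The log2 fold change was -0.40 ± 0.17 (SE, limma unadjusted p 0.0499, adjusted p 0.174), and the interval ran from 0.574-fold to 1-fold. Mef2c has the longest transcript of the 9, with 6277 bases. After the correction for transcript length its log2 fold change was -0.05 (limma adjusted p 0.9). Without transgenic replicate 2 the uncorrected log2 fold change was -0.60, and without transgenic replicate 1 it was -0.20.

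Mef2c also marks vessels and heart muscle. Of 10 endothelial markers 0 were called in limma, and they summed to 6601 and 6660 in transgenic arches against 5246 and 5091 in wild-type arches. Of 9 cardiac markers tested 0 were called in limma, with sums of 628.2 and 526.2 in transgenic arches against 535.5 and 504 in wild-type arches, and Nppa had no reads in any library. The part of these cells in the Mef2c values was not tested.

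Gsc, the homeobox gene goosecoid, lies on chromosome 12 at 104471209 to 104473330 and showed the largest difference of the 8. Gsc was at 34.13 and 19.4 normalized reads in transgenic arches, against 64.53 and 49.37 in wild-type arches. Both transgenic libraries lay below both wild-type libraries, with means 2.13-fold apart. Limma gave a log2 fold change of -1.10 ± 0.44 (SE), an unadjusted p of 0.0408 and an adjusted p of 0.155. The interval ran from 0.226-fold to 0.959-fold. These values rest on few reads, 32 and 16 in the transgenic and 87 and 48 in the wild-type libraries. The 95% Poisson interval of transgenic library 1, 23.3 to 48.2 normalized reads, overlapped that of wild-type library 2, 36.4 to 65.5. With each library left out the log2 fold change of Gsc lay between -1.49, without transgenic replicate 1, and -0.71, without transgenic replicate 2. The correction for transcript length gave -1.30 (limma adjusted p 0.153).

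**Figure D3:**
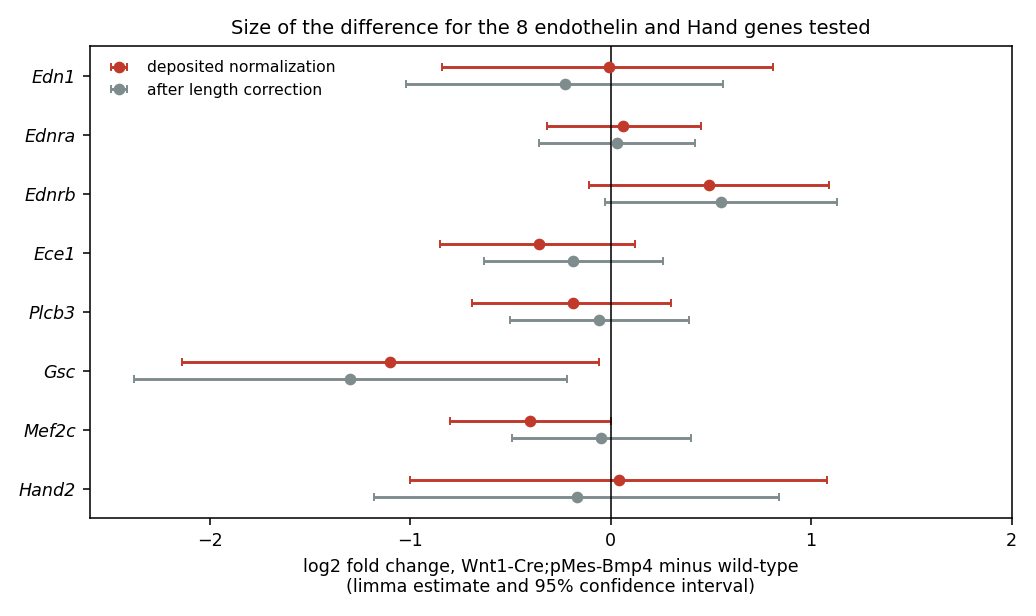
Log2 fold change of transgenic minus wild-type for the 8 genes tested, with limma's 95% confidence interval, from the deposited normalization (red) and after the length correction (grey). The Gsc intervals lie below 0, Ednrb leans higher and Mef2c moves from -0.40 to -0.05 with the correction.

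Hand2, the bHLH factor of the distal arch, was low and did not separate the groups. It lies on chromosome 8 at 57320983 to 57324633. Hand2 was at 69.32 and 33.95 normalized reads in transgenic arches, against 50.44 and 44.23 in wild-type arches. The transgenic libraries held the highest and the lowest of the 4 values, 2.04-fold apart. For Hand2 the log2 fold change was 0.04 ± 0.44 (SE, limma adjusted p 0.962), and the interval ran from 0.501-fold to 2.11-fold. It was -0.46 without transgenic replicate 1 and 0.54 without transgenic replicate 2. The exons of Hand2 share 461 of their 2351 bases with exons of Hand2os1 on the other strand. No source used here states that counting used the strand, so reads of those bases cannot be assigned to Hand2 with certainty. The overlap with genes on the other strand was smaller for Ednra, Edn1 and Plcb3, at 91, 35 and 22 exonic bases.

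Hand1, a relative of Hand2 expressed at the distal midline, lies on chromosome 11 at 57828705 to 57832818. Hand1 had 3 and 12 reads in transgenic libraries 1 and 2, against 19 and 2 in wild-type libraries 1 and 2. This corresponds to 3.2 and 14.55 normalized reads in transgenic arches, against 14.09 and 2.057 in wild-type arches. Each group thus held 1 library with several reads and 1 with few. The mean over the 4 libraries was 8.47, under the minimum for the test. With no filter on low values the log2 fold change was 0.25, with limma's 95% interval from -1.97 to 2.47 and an adjusted p of 0.918. That interval leaves differences of several-fold in either direction possible.

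Per length, Hand2 exceeded Hand1 17.5-fold and 1.89-fold in the transgenic libraries, against 2.9-fold and 17.4-fold in the wild-type libraries. The ratio differed more between libraries of 1 group than between the groups. Hand1 and Edn1 shared an order, in that both were higher in transgenic library 2 and wild-type library 1 than in the other library of each group. Hand2 had the opposite order in the transgenic libraries. Heart expresses both Hand genes, and the cardiac markers given beside Mef2c were called in 0 of 9 in limma.

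**Figure D4:**
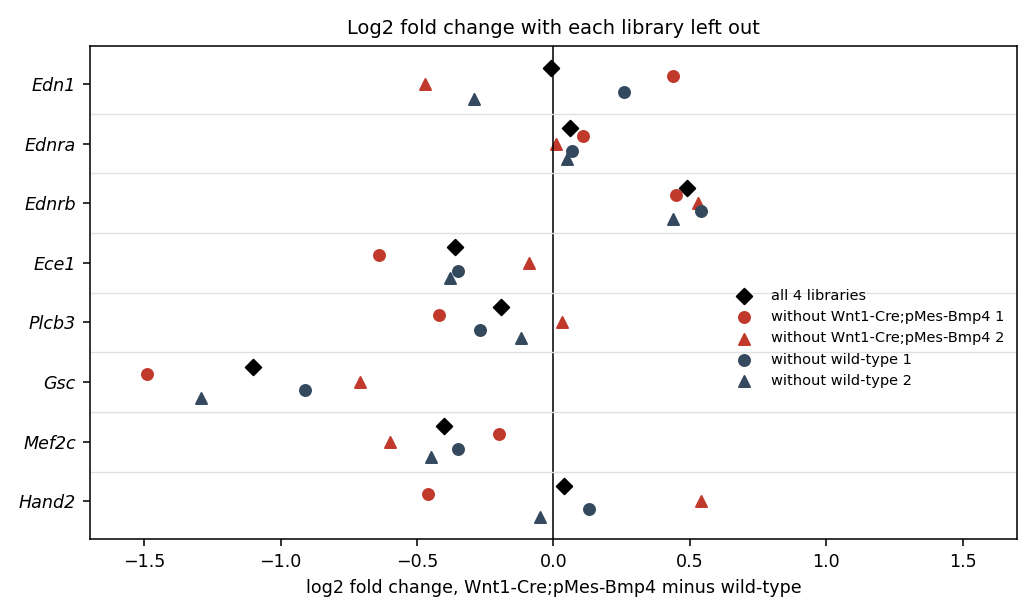
Log2 fold change of transgenic minus wild-type for the 8 genes tested, with all 4 libraries (black) and with each library left out (red for a transgenic, dark blue for a wild-type library). Ednra and Ednrb move little, while Edn1 and Hand2 change sign with the library left out.

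Other genes of the path were read as lists, in which 2.97% of all genes tested were higher and 5.28% lower. The other ligands and the peptidases that make or degrade endothelins gave 0 higher and 0 lower of 8 tested in limma, with a median log2 fold change of -0.05. In this list, 0 were also called by limma after the length correction. Edn3, the ligand of Ednrb-bearing crest, was nearest to the threshold. Edn3 was at 584.4 and 419.5 normalized reads in transgenic arches, against 801.8 and 890.7 in wild-type arches. The groups did not overlap, and the log2 fold change was -0.77 ± 0.20 (SE), just short of the threshold (limma adjusted p 0.059). Edn3 passed in 6 of 15 alternatives, among them DESeq2 (adjusted p 0.00921). Mme, the peptidase neprilysin, had a log2 fold change of 0.53 and did not pass (limma adjusted p 0.21).

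The signalling steps between receptor and nucleus held several calls although Ednra and Plcb3 held none. Among 12 tested genes of G proteins and their regulators, phospholipases and calcium channels, 4 fell, 1 rose and 7 did not pass. Their median log2 fold change was -0.45. Itpr1, the inositol trisphosphate receptor that releases calcium, was at 370.1 and 352.8 normalized reads in transgenic arches, against 952.4 and 963.7 in wild-type arches. Gnaq, the alpha subunit of Gq, was at 691.1 and 663.2 in transgenic arches, against 1515 and 1864 in wild-type arches. In both genes the groups were wide apart, with log2 fold changes of -1.40 and -1.31 and a limma adjusted p of 0.0194 each. Gna13 and Plcb1 were also lower, by log2 fold changes of -0.90 and -1.21 (limma adjusted p 0.0233 and 0.0333). Gnai3, an inhibitory subunit named here after its value was seen, was the 1 higher gene, with a log2 fold change of 0.70 (limma adjusted p 0.0406). The regulators of G protein signalling Rgs4 and Rgs5, also named after their values were seen, stood at 1.48 and 1.97 on the same log2 scale, with limma adjusted p of 0.114 and 0.101, and were not called.

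Transcript length moved with this list. Its median transcript was 5430 bases. Among all tested genes with a known length, the median log2 fold change was -0.35 for the 4059 longest transcripts, of 4567 bases and more, and 0.13 for the 4058 shortest, of up to 1796 bases. After the length correction 1 of the 12 was lower and 0 were higher, where 0.931% of all genes were lower and 0.61% higher. Gnaq remained, at a log2 fold change of -1.02 (limma adjusted p 0.0365). Itpr1, with a transcript of 9870 bases, was then at -0.81 (limma adjusted p 0.0517). Gna13, Plcb1 and Gnai3 were at -0.56, -0.78 and 0.60, with limma adjusted p values of 0.0804, 0.107 and 0.103.

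Mef2c's relatives and the histone deacetylases that bind MEF2 factors gave 1 lower gene of 6 tested, and 0 higher in limma. Hdac7 was at 485.3 and 308 normalized reads in transgenic arches, against 746.2 and 914.4 in wild-type arches (log2 fold change -1.09, limma adjusted p 0.0428). Hdac4 was at a log2 fold change of -0.47 and did not pass (limma adjusted p 0.184). The median was -0.44, and -0.04 after the length correction, when 0 of the 6 passed in limma. Hdac7 was then at a log2 fold change of -0.86 (limma adjusted p 0.0822).

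Genes that depend on endothelin or on Dlx5/6 in the lower jaw gave 3 lower, 0 higher and 5 without a call of 8 tested, with a median log2 fold change of -0.67. Gbx2, a homeobox gene known as a Dlx5/6-dependent gene of the arch, was at 12.8 and 13.34 normalized reads in transgenic arches, against 116.5 and 147.1 in wild-type arches. That is a log2 fold change of -3.23 ± 0.38 (SE, limma adjusted p 0.0194). Dlx4 was at 34.13 and 42.44 in transgenic arches, against 116.5 and 169.7 in wild-type arches, and Dlx3 at 410.6 and 341.9 in transgenic arches, against 620.8 and 869.1 in wild-type arches. Their log2 fold changes were -1.86 and -0.97 (limma adjusted p 0.0286 and 0.0423). Dlx6 and Dlx5, named here after their values were seen, did not pass (limma adjusted p 0.0895 and 0.356). Log2 fold changes were -0.95 for Dlx6 and -0.40 for Dlx5. The groups did not overlap in Dlx6 and overlapped in Dlx5. After the length correction Gbx2 and Dlx4 were lower, and Dlx3 was at -1.16 with a limma adjusted p of 0.0502. The median of the list was then -0.88. These falls stood beside Edn1 and Ednra without a call. For Dlx4, an antisense transcript overlaps the gene, and without a stated strand setting its reads cannot be separated. Exon overlap was not measured for the genes of this list, so the same limit may hold for others, Dlx6 among them.

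Genes known to be held down by endothelin in the lower jaw, or to hold Edn1 down in the upper jaw, also gave falls and no rise. Of 9 tested, 4 were lower, 0 were higher in limma and 5 did not pass, with a median of -0.92. Pou3f3, a POU factor of the maxillary arch, was at 33.06 and 20.61 normalized reads in transgenic arches, against 413.9 and 932.9 in wild-type arches (log2 fold change -4.52, limma adjusted p 0.0182). Nr2f1 and Nr2f2, orphan nuclear receptors, had log2 fold changes of -1.01 and -0.92, and the Notch target Heyl of -1.88. After the length correction 3 of the 9 were lower, and Heyl, at a log2 fold change of -1.75, did not pass (limma adjusted p 0.0578).

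Hand proteins act as dimers with E proteins, for which Id proteins compete. Among 9 such partners and Ids tested, 4 rose, 1 fell and 4 stayed short of the threshold. All 4 that rose were Ids. Id2 was at 31570 and 32550 normalized reads in transgenic arches, against 15990 and 16630 in wild-type arches, and Id4 at 453.3 and 428 in transgenic arches, against 212.9 and 203.6 in wild-type arches. Their log2 fold changes were 0.98 and 1.08, and Id1 was at 0.60. Id3, named here after its value was seen, was at 0.75. The 1 that fell was the E protein gene Tcf4, at 2247 and 2115 in transgenic arches, against 4788 and 5920 in wild-type arches (log2 fold change -1.29, limma adjusted p 0.0194). After the length correction Id2, Id4 and Tcf4 passed, at 0.75, 1.09 and -0.76. Id1 and Id3 were then at 0.41 and 0.55, with limma adjusted p of 0.221 and 0.203.

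Factors that act on Hand gene enhancers gave 2 higher, 0 lower and 4 without a call of 6 tested. Gata3, a zinc finger factor, was at 547.1 and 417.1 normalized reads in transgenic arches, against 184 and 141.9 in wild-type arches (log2 fold change 1.56, limma adjusted p 0.0233). Isl1, a LIM homeobox factor, was at 1786 and 1667 in transgenic arches, against 827.1 and 562.6 in wild-type arches (log2 fold change 1.34, limma adjusted p 0.0231). Both also passed after the length correction, at 1.45 and 1.14. Hand2 and Hand1 themselves showed no separation of the groups, as given above.

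**Figure D5:**
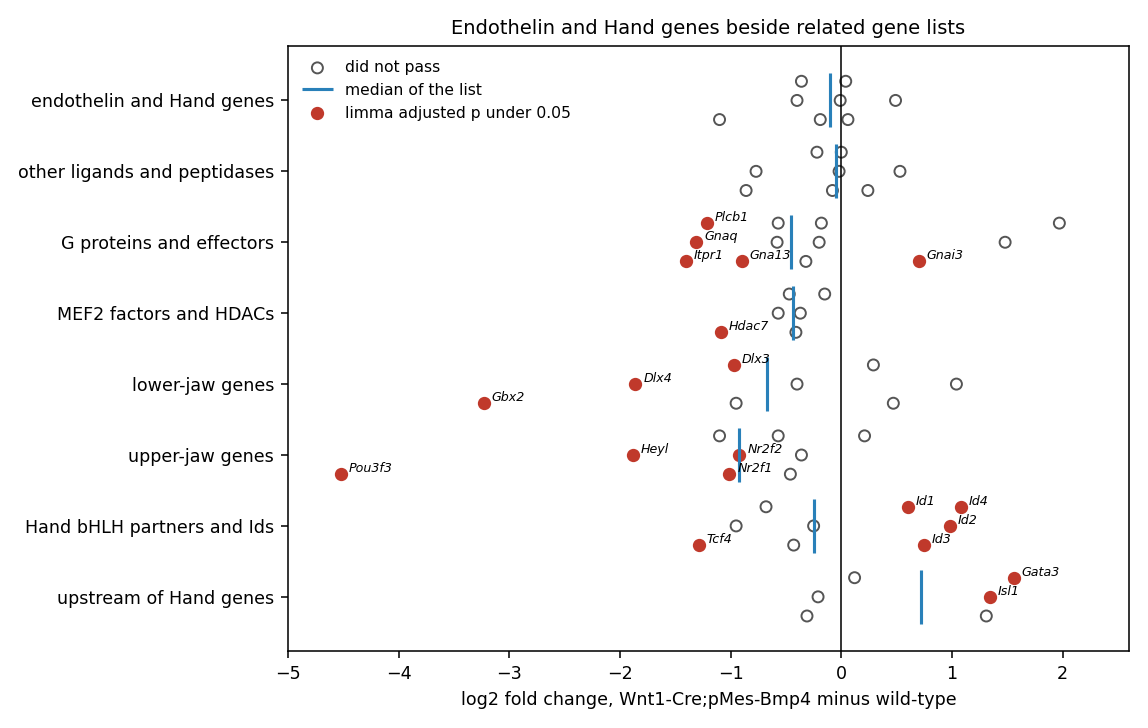
Log2 fold change of transgenic minus wild-type for each tested gene of the 8 endothelin and Hand genes and 7 related lists; filled red points passed in limma, open points did not, and blue bars are list medians. No endothelin or Hand gene is filled, Gbx2 at -3.23 and Pou3f3 at -4.52 lie farthest to the left, and the filled points to the right are the Ids, Gnai3, Gata3 and Isl1.

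The genes with patterns nearest to 4 of the genes were found by the root mean square difference of centred log2 values over the 4 libraries, among 10836 genes. Zbtb26 (0.0828) and Zfp759 (0.0995) were nearest to Edn1. Mrpl40 (0.00573) was among the nearest to Ednra, whose flat pattern lay within 0.2 of 4608 genes. Plpp6 (0.0228) and Myh14 (0.0369) were nearest to Hand2, and Zfp984 (0.27) and Nap1l2 (0.496) to Hand1. Over only 4 libraries such likeness describes these libraries and nothing more.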

How the data were processed

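Per the file headers, the authors counted reads with featureCounts; each deposited value is a normalized signal, the count over its library's size factor. The tool fastp 0.21.0 and the mm10 build are listed in the submitters' processing notes. Aligner, annotation release and strand setting: not given in the sources used here. All values (100%) were whole reads to within 0.01 once rescaled.

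Limma 3.58.1 (R 4.3.3), with a mean-variance trend, was run on log2(value + 1), for genes averaging at least 10 normalized reads. Tests were two-sided and adjusted by Benjamini-Hochberg over 16746 genes. The pseudocount of 1 shrinks fold changes of low genes. With 2 against 2 libraries, exact permutation cannot reach a two-sided p under 0.333. On recovered reads, edgeR 4.0.16 called 409 genes higher and 915 lower; DESeq2 1.42.0 was a further alternative.

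For the length correction, a spline (4 degrees of freedom) on log2 transcript length was fitted to each library's deviations, over genes averaging at least 50, and removed. GENCODE M21 (GRCm38, equal to mm10) gave coordinates and the longest transcripts, for 96.9% of tested genes. Lists named up to 4 called genes by p, or the best 2 where fewer than 2 were called. The genes, lists and alternatives were chosen with earlier results of these data known. Some single genes that these rules would name are not reported here. Scripts were tested on simulated data. Plots used matplotlib 3.10.9.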

Additional observations from a re-analysis of the deposited data

How the results depend on the processing

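The count of endothelin and Hand genes past the threshold was 0 higher and 0 lower under all 11 alternatives that kept every library, in limma, edgeR or DESeq2. Over the fits that left out each library in turn, 0 were higher, and between 0 and 2 were lower. All genes called higher numbered 498 in limma and all called lower 884. They were 1234 and 1573 with DESeq2, 165 and 543 with the replicate number as a block, 99 and 151 after the length correction, and 0 and 0 in limma without a trend (1560 and 2365 at an unadjusted p under 0.05; edgeR called 409 and 915). Between 0 and 2675 were higher and between 0 and 2719 lower over the fits that left out each library. Leaving out wild-type replicate 2 gave 1 and 0, and leaving out wild-type replicate 1 gave 0 and 0 in limma (1393 and 1792 at an unadjusted p under 0.05). No gene of the related lists was called in limma in either of these fits (0 in each). A fit without 1 library assumes that the lone library varies like the other group. The cause of these shifts was not tested. No pairing of the libraries is stated. Deviations of same-numbered libraries had a correlation of -0.147, which with 2 libraries a group cannot decide whether they were paired. The crossed pairing, added after seeing the data, called 1763 higher and 1952 lower.

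Edn1 changed sign with edgeR (log2 fold change 0.00) and DESeq2 (0.02), and lay between -0.47 and 0.44 with each library left out. Hand2 was at -0.17 after the length correction and between -0.46 and 0.54 with each library left out, and Plcb3 between -0.42 and 0.03. Hdac4 was at 0.03 after the length correction. Gsc and Hand2 had no value with a mean of at least 50. Hand1 had 2 to 19 reads a library and Gsc 16 to 87.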
